A study of Mus musculus with 6 samples.

Results

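The genes described here control how readily membrane lipids peroxidise, the event that kills a cell by ferroptosis. They were chosen by name, with earlier results of these data known. There were 3 drivers of lipid peroxidation (Acsl4, Lpcat3 and Por) and 6 suppressors of ferroptosis (Gpx4, Aifm2, Dhodh, Gch1, Acsl3 and Mboat2). All 9 were found among the 24421 rows of the expression table. The 3 drivers were lower in cells labelled Atg5KO, to between 61.0% and 81.2% of the level in cells labelled Atg5F/F. Of the suppressors, Gpx4 fell to 84.7%, Mboat2 rose to 123%, and 4 were not called. Among all tested genes 21.3% were called higher and 17.9% lower by the same test.

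The RNA came from mouse kidney, from primary proximal tubular epithelial cells cultured with serum. There were 2 groups of 3 libraries, one with the genotype Atg5F/F (the floxed gene, used as control) and the other Atg5KO, in which the autophagy gene Atg5 is labelled as knocked out. Every library, controls included, came from cells given 20 µM erastin2 for 24 h, an inhibitor of cystine import that depletes glutathione. No untreated group was analysed here, so differences in the response to erastin2 and differences present before it cannot be told apart. How Atg5 was deleted, and whether the 3 libraries of a group came from separate animals or cultures, is not given in the sources used here, and p-values therefore reflect just the scatter of these 6 samples, which may be technical.

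Ferroptosis needs phospholipids that carry polyunsaturated fatty acids. ACSL4 activates such fatty acids, arachidonic acid above all, by joining them to coenzyme A, and LPCAT3 inserts them into lysophospholipids. POR, cytochrome P450 oxidoreductase, passes electrons from NADPH to cytochromes P450 and can feed the peroxidation of these lipids. On the opposing side, GPX4 uses glutathione to reduce lipid hydroperoxides within the membrane. AIFM2 (FSP1) regenerates reduced coenzyme Q at the plasma membrane, DHODH does so in the inner mitochondrial membrane, and GCH1 starts the synthesis of tetrahydrobiopterin, a further radical-trapping antioxidant. ACSL3 and MBOAT2 place monounsaturated fatty acids, which resist peroxidation, into phospholipids.

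Read totals ranged from 15528454 to 30004933 per library. Expression is given as FPKM, fragments scaled by gene length and library depth, so levels can be compared between genes. Atg5 itself was called higher under the KO label, at a mean of 12.5 against 8.55 FPKM (log2 fold change 0.5, adjusted p = 5.5e-04 by limma). A value for the whole gene does not show whether an exon was deleted, so the label was not checked by it, and the groups are called KO-labelled and F/F-labelled throughout. Of 15 proximal tubule markers, 8 stayed under 1 FPKM in all 6 libraries, among them the phosphate transporter gene Slc34a1, and Slc22a8 was at 0, while Lrp2, Ggt1 and Hnf4a were present. The summed level of these 15 markers was 230.1 to 252.7 FPKM in F/F-labelled and 127.8 to 139.9 FPKM in KO-labelled libraries, with 5 of 6 tested members lower and 1 higher. The 6 markers of smooth muscle and pericytes summed to 39.5 to 46.0 FPKM and 175 to 224 FPKM, nearly all from Acta2, with 3 of 3 tested members higher and Myh11, Des and Rgs5 under 1 FPKM in every library. Fibroblast, distal tubule and collecting duct markers (21 genes in 3 lists) were all under 1 FPKM in every library. Podocyte markers summed to 27.2 to 31.3 FPKM under the F/F label and 27.6 to 31.1 FPKM under the KO label, mostly Synpo, with Podxl higher (log2 fold change 0.58) and Wt1 lower (-0.42). Endothelial markers summed to 10.3 to 11.9 FPKM and 7.40 to 9.03 FPKM, with Kdr lower (9.06 to 5.53 FPKM) and 5 of 7 under 1 FPKM, Pecam1 and Cdh5 among them. Leukocyte markers summed to 11.01 to 13.38 FPKM and 10.34 to 12.55 FPKM, from Cd68 and Csf1r, neither of them called, with Adgre1, Itgam and Cd3e at 0. The part of these marker changes in the results below was not tested, and in bulk RNA fewer cells of a type and less RNA per cell cannot be told apart.

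Among the 9 members there were 4 lower, 1 higher and 4 that did not pass the test (limma on log2(FPKM + 1), Benjamini-Hochberg adjusted p under 0.05 over all 11559 genes tested). By comparison, 39.2% of all tested genes were called in either direction. The values of both groups did not overlap for 5 of 9 members, against 51.9% of tested genes. The number of called members was not far from the background. By role, 3 of 3 drivers were lower, with a median log2 fold change of -0.33, and of the 6 suppressors 1 was lower and 1 higher, with a median of -0.03. The median over all tested genes was 0.02. Lists this short were described and not tested as lists.

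**Figure D1:**
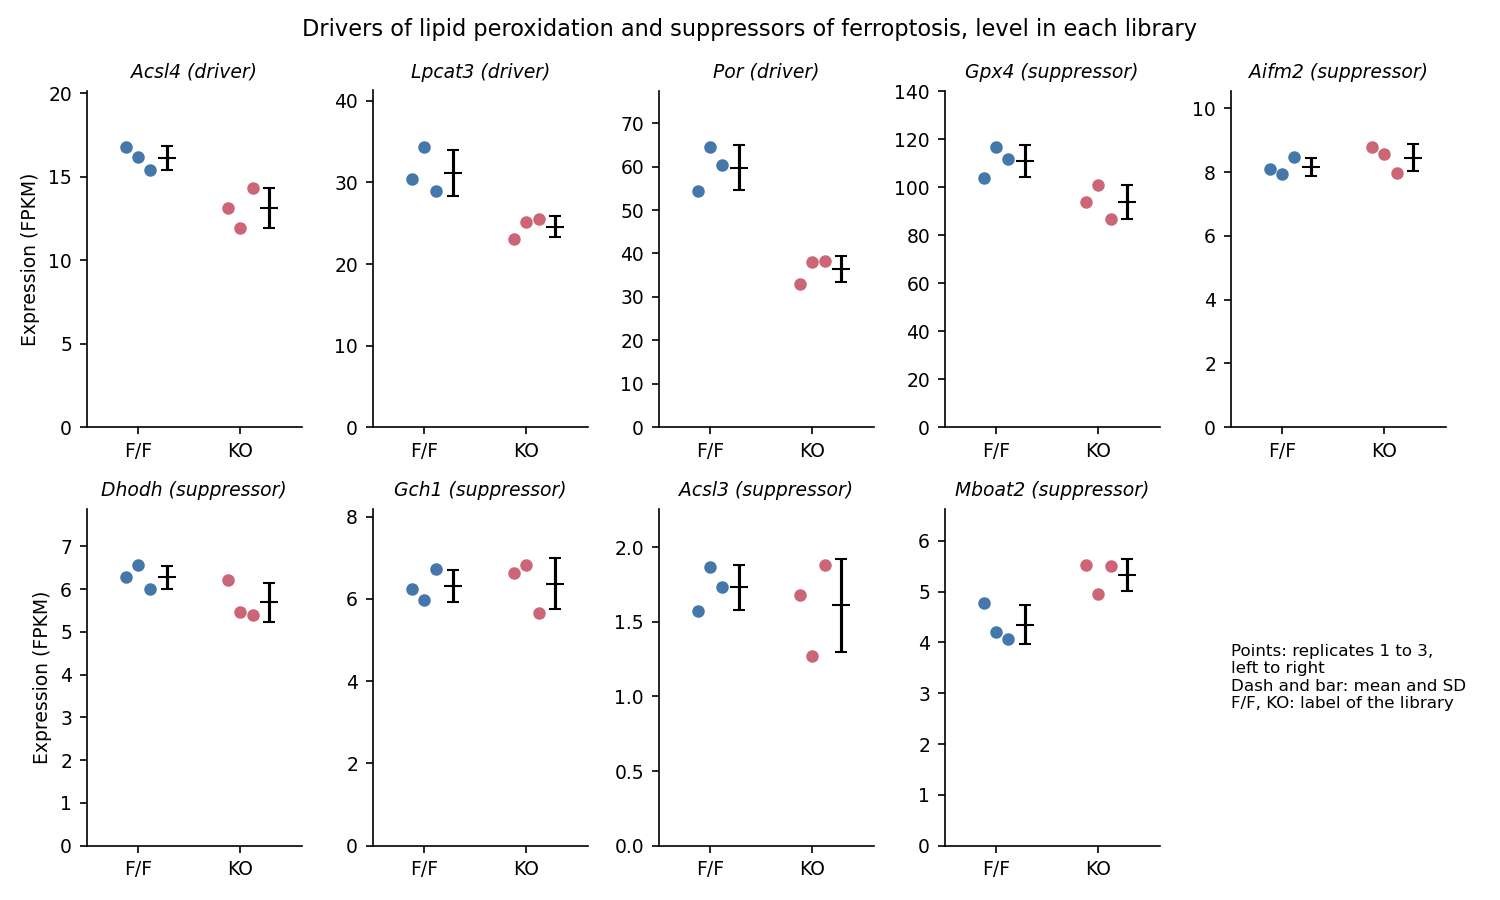
Expression of the 9 members in FPKM (vertical axes, each from 0) in the 3 F/F-labelled and 3 KO-labelled libraries, with the mean and SD beside the points. The groups are apart for Acsl4, Lpcat3, Por, Gpx4 and Mboat2 and overlap for Aifm2, Dhodh, Gch1 and Acsl3.

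Por showed the largest difference among the members. The gene lies on the plus strand of chromosome 5 (135670033 to 135735326 in GRCm38, per GENCODE vM21). Its level was 54.3, 64.6 and 60.3 FPKM in F/F-labelled replicates 1 to 3 and 32.9, 38.1 and 38.2 FPKM in KO-labelled replicates 1 to 3. Every KO-labelled value was below every F/F-labelled one, the nearest pair being 38.2 and 54.3 FPKM. The mean was 59.7 ± 5.2 FPKM under the F/F label and 36.4 ± 3.0 FPKM under the KO label (SD, n = 3), which is a log2 difference of -0.70 (SE 0.075, adjusted p = 1.8e-04 by limma). By size of the decrease it ranked 222 among the 2073 genes called lower. In each of 16 alternative analyses Por was called lower, with log2 fold changes from -0.77 to -0.63.

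Lpcat3 (chromosome 6, 124663027 to 124704418, plus strand) was next among the drivers. The values were 30.4, 34.4 and 28.9 FPKM in F/F-labelled and 23.1, 25.2 and 25.5 FPKM in KO-labelled replicates. The lowest F/F-labelled library stood above the highest KO-labelled one. The mean went from 31.2 ± 2.8 to 24.6 ± 1.3 FPKM (log2 difference -0.33, SE 0.066, adjusted p = 0.0049 by limma). Lpcat3 shares 334 exon bases, 10.2% of its annotated exon sequence, with Emg1 on the opposite strand. Emg1, a ribosome biogenesis gene, was itself lower, from 48.2 ± 1.1 to 37.8 ± 2.9 FPKM (log2 fold change -0.35). The strand setting of the counting is not given in the sources used here, so reads in the shared part cannot be assigned with certainty.

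Acsl4 (chromosome X, 142317993 to 142390535, minus strand) had the smallest decrease of the drivers. It was measured at 16.8, 16.2 and 15.4 FPKM in F/F-labelled and 13.1, 11.9 and 14.3 FPKM in KO-labelled replicates. The groups did not overlap, with KO-labelled replicate 3 closest to the controls. The means of 16.1 ± 0.73 and 13.1 ± 1.2 FPKM gave a log2 fold change of -0.28 (SE 0.067, adjusted p = 0.0099 by limma). Without KO-labelled replicate 2 the log2 fold change was -0.22, still called. Acsl4 and Lpcat3 were called lower in 16 of 16 alternative analyses each.

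The promoters of the 3 drivers, called lower, and of Mboat2, called higher, are shown. Gpx4, also called lower, had 4 windows, which are not printed. RefSeq start sites were matched for 8 of 9 members, and each window below is 300 bases around the start (GRCm38.p6): chr5:135688895-135689194 on the plus strand for Por, chr6:124662854-124663153 on the plus strand for Lpcat3, chrX:142390486-142390785 on the minus strand for Acsl4 and chr12:24831349-24831648 on the plus strand for Mboat2. The windows of Por, Mboat2 and Aifm2 lie inside the GENCODE genes, which begin at 135670033, 24830879 and 61715263. Any start site of these genes further upstream was not searched. Capitals mark matches to the GC box (GGGCGG) and the CCAAT box (CCAAT), each on either strand.
Por: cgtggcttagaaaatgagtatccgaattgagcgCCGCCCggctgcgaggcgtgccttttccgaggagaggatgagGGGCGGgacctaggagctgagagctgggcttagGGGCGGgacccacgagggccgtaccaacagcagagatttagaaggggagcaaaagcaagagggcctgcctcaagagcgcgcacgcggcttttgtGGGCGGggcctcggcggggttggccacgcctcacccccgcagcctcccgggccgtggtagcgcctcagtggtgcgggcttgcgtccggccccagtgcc
Lpcat3: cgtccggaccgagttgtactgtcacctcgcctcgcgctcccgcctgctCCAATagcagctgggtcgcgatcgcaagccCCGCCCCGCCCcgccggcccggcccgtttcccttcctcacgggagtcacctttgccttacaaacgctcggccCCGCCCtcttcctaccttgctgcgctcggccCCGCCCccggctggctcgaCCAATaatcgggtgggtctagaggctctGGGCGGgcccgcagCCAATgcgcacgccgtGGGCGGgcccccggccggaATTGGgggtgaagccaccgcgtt
Acsl4: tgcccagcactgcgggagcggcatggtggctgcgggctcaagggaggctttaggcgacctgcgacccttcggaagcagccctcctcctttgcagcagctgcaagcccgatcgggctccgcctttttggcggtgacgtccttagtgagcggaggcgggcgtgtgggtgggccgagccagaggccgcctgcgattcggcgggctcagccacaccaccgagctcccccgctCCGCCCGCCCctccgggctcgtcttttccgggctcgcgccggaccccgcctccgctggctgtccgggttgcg
Mboat2: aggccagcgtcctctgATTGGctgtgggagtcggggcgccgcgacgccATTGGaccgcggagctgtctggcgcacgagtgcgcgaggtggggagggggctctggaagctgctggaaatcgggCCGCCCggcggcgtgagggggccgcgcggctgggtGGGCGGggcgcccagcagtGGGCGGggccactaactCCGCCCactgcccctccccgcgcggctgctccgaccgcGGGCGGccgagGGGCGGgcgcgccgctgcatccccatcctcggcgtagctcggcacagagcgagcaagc
These windows held 67.3%, 71.0%, 71.7% and 76.3% G or C, against a median of 52.7% over all 32851 RefSeq windows of the same length. The GC box was matched 4 times in Por, 6 times in Lpcat3, 2 times in Acsl4 and 6 times in Mboat2, some matches overlapping, and at least once in 35.7% of all windows. The CCAAT box was matched 4 times in Lpcat3 and 2 times in Mboat2, and at least once in 37.4% of all windows. The letters CACGTG (the E box; 7.15% of all windows), TGACNNNGC (the antioxidant response element; 12.4%), TATAAA (the TATA box; 13.6%) and the DR4 direct repeat of nuclear receptors (0.0152%) were not in these 4 windows on either strand. The GC box was also matched in members that were not called, 5 times in Acsl3 and 2 times in Gch1, and in 3 of the 4 Gpx4 windows, but not in Aifm2, so its presence did not follow the calls. The CCAAT box was likewise matched 1 time each in Acsl3 and Gch1, and 1, 3, 3 and 0 times in the Gpx4 windows. It was not matched in Por, Acsl4 or Aifm2.

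Among the suppressors, Gpx4 was the most abundant and the only one called lower. The gene is on chromosome 10 (80047166 to 80056439, plus strand). GPX4 is a selenoprotein, and its messenger holds an in-frame TGA codon that is read as selenocysteine, the residue that reduces the hydroperoxide. Gpx1 and Gpx3 carry such a codon too, and the coding bases around it are shown from GENCODE vM21 transcripts with that codon in capitals, because these are the selenium-dependent peroxidases measured in the same cells. In Gpx4 the codon lies at chr10:80054737-80054739, in Gpx1 at chr9:108339451-108339453 and in Gpx3 at chr11:54907256-54907258, all on the plus strand of GRCm38.
Gpx4: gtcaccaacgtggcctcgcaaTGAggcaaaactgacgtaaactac
Gpx1: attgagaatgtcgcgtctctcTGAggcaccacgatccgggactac
Gpx3: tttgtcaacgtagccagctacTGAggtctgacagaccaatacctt
Over these 45 bases Gpx4 matched Gpx1 at 25 and Gpx3 at 24 positions.

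Gpx4 was at 104, 117 and 112 FPKM in F/F-labelled and 93.9, 101 and 87.0 FPKM in KO-labelled replicates. The groups came close, with F/F-labelled replicate 1 just above KO-labelled replicate 2. The means were 111 ± 6.7 and 93.9 ± 6.9 FPKM, a log2 fold change of -0.24 (SE 0.062, adjusted p = 0.016 by limma). This call was lost without F/F-labelled replicate 2 (log2 fold change -0.20, adjusted p = 0.053) or F/F-labelled replicate 3 (-0.23, adjusted p = 0.055). Gpx4 has pseudogenes (Gpx4-ps1 and Gpx4-ps2 in RefSeq), and how reads that match more than 1 place were counted is not given in the sources used here, which leaves its level uncertain.

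Mboat2 (chromosome 12, 24830879 to 24964397, plus strand) was the only member called higher. The values were 4.77, 4.21 and 4.06 FPKM in F/F-labelled and 5.52, 4.96 and 5.50 FPKM in KO-labelled replicates. All 3 KO-labelled libraries lay above all 3 controls, the nearest pair being 4.77 and 4.96 FPKM. The mean rose from 4.35 ± 0.38 to 5.33 ± 0.32 FPKM (log2 difference 0.24, SE 0.072, adjusted p = 0.027 by limma). The gene rested on 183 to 401 reads per library. The call was lost without F/F-labelled replicate 2 (adjusted p = 0.072), F/F-labelled replicate 3 (0.098), KO-labelled replicate 1 (0.082) or KO-labelled replicate 3 (0.075), with log2 fold changes from 0.21 to 0.23. It was also lost without a filter on low values (0.066).

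The other 4 suppressors were not called, and their groups overlapped. Aifm2 was at 8.10, 7.93 and 8.47 FPKM in F/F-labelled and 8.80, 8.57 and 7.97 FPKM in KO-labelled replicates, a log2 fold change of 0.04 (95% interval -0.08 to 0.17). It shares 233 exon bases, 5.65% of its exon sequence, with H2afy2 on the opposite strand. Gch1 was at 6.23, 5.96 and 6.72 FPKM against 6.62, 6.82 and 5.65 FPKM (0.01, interval -0.16 to 0.18). Both the highest and the lowest Gch1 value came from KO-labelled libraries. Dhodh was at 6.28, 6.56 and 6.01 FPKM against 6.21, 5.46 and 5.40 FPKM (-0.12, interval -0.27 to 0.03). KO-labelled replicate 1 lay among the controls and the other 2 below them. Acsl3 was the lowest of the members, at 1.57, 1.87 and 1.73 FPKM against 1.68, 1.27 and 1.88 FPKM (-0.07, interval -0.31 to 0.17), on 85 to 186 reads per library. Acsl3 shares 244 exon bases, 5.6% of its exon sequence, with Utp14b on the same strand. Utp14b had means of 0.224 FPKM under the F/F label and 0.341 FPKM under the KO label. The lower ends of these 4 intervals lay between -0.31 and -0.08. The adjusted p-values of Aifm2, Gch1, Dhodh and Acsl3 were 0.56, 0.94, 0.17 and 0.64 by limma. Exact permutation tests of the 6 values, two-sided, gave p = 0.1 for each of the 5 called members, the smallest that 3 against 3 allows, and 0.2 to 0.9 for these 4.

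**Figure D2:**
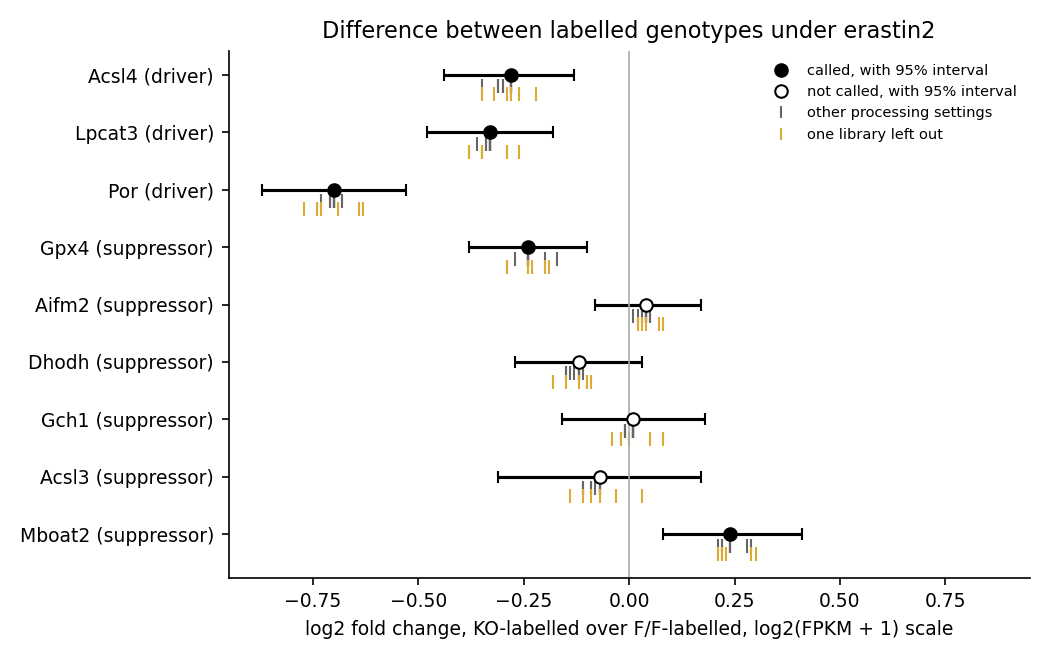
Log2 fold change of each member, KO-labelled over F/F-labelled (horizontal axis), with its 95% interval; grey ticks are other processing settings and yellow ticks leave out 1 library. The 3 drivers lie between -0.70 and -0.28, Gpx4 at -0.24 and Mboat2 at 0.24, and the open circles of the other 4 suppressors have intervals that include 0.

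In F/F-labelled libraries the members fell in the order Gpx4, Por, Lpcat3, Acsl4, Aifm2, Gch1, Dhodh, Mboat2 and Acsl3 by FPKM. Neighbours in that order were apart in all 3 replicates except Gch1 and Dhodh, whose ranges overlapped. Under the KO label Dhodh and Mboat2 overlapped as well. Gpx4 ranked 624 among the 11559 tested genes by mean level, in the top 5.4%, and Por 1662, whereas Acsl3 ranked 10776. The transcripts of AIFM2, GCH1 and DHODH, which support defences independent of glutathione, had means of 8.17, 6.31 and 6.28 FPKM there, against 111 FPKM for Gpx4.

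**Figure D3:**
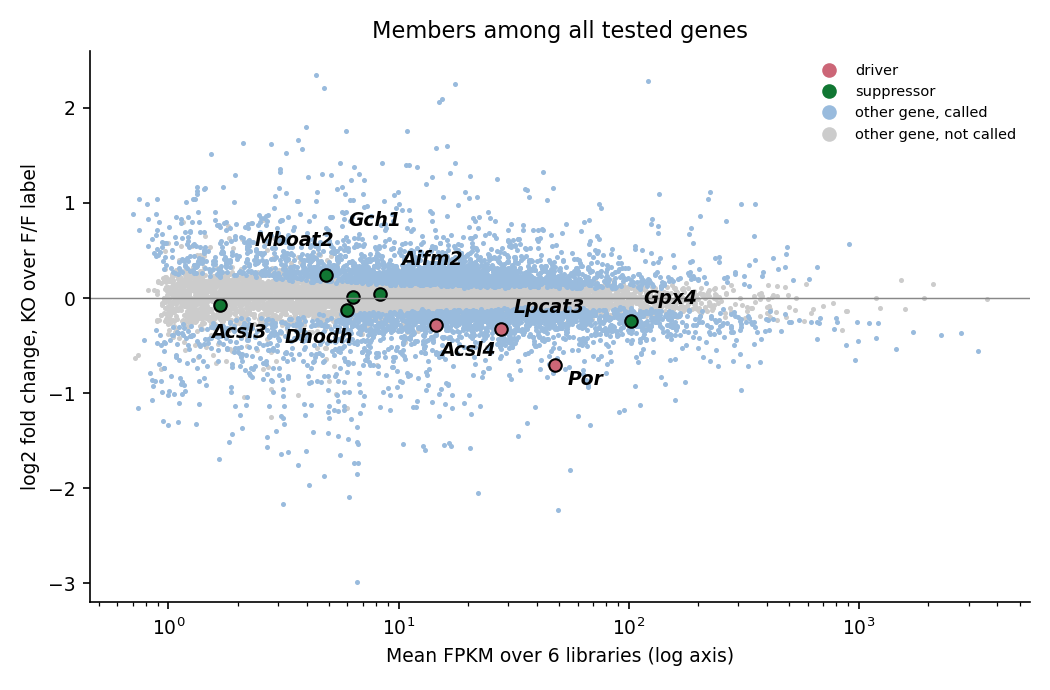
Mean FPKM over 6 libraries (horizontal log axis) against log2 fold change, KO label over F/F label (vertical axis), for all tested genes, with called genes in blue and the members as large circles. The drivers lie below 0, from the middle of the expression range upward, and the suppressors span the range from Acsl3 to Gpx4. Of the suppressors, Gpx4 (-0.24) lies near the driver Acsl4 (-0.28), Mboat2 lies above 0 (0.24), and the others were not called.

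Related enzymes of opposite role allow a ratio within each library, given as a description with no test. ACSL4 and ACSL3 are both acyl-CoA synthetases, favouring polyunsaturated and monounsaturated fatty acids. The FPKM ratio of Acsl4 to Acsl3 was 10.7, 8.67 and 8.86 under the F/F label against 7.79, 9.35 and 7.63 under the KO label, so the groups overlapped (means 9.41 ± 1.1 and 8.26 ± 0.95). LPCAT3 and MBOAT2 are acyltransferases of the same family with the corresponding preferences. The ratio of Lpcat3 to Mboat2 was 6.37, 8.17 and 7.11 against 4.18, 5.08 and 4.64, and the groups were apart (7.22 ± 0.91 and 4.63 ± 0.45). This second ratio combines 2 genes that were called in opposite directions.

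**Figure D4:**
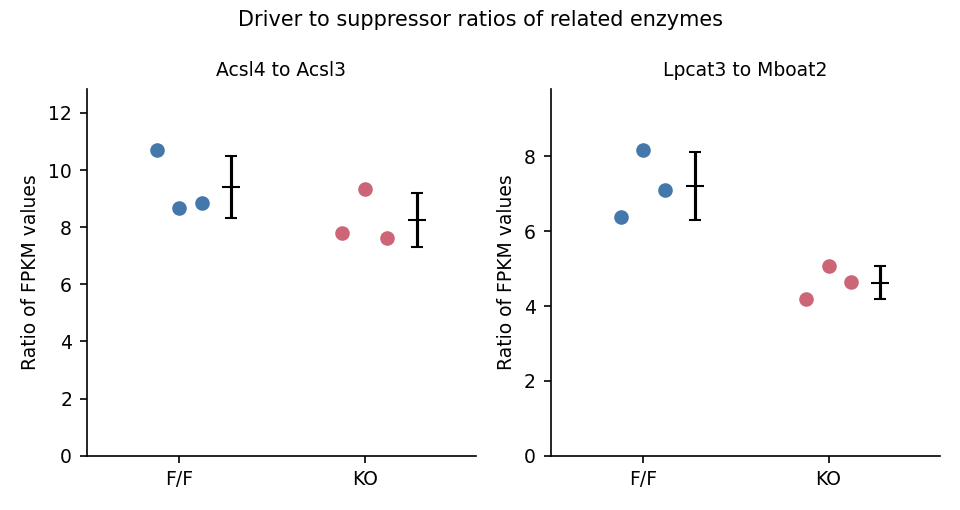
Ratio of FPKM values in each library for Acsl4 to Acsl3 (left) and Lpcat3 to Mboat2 (right), with mean and SD; the vertical axes start at 0. The left ratio overlaps between labels, and the right one falls from between 6.37 and 8.17 to between 4.18 and 5.08.

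Genes of the same pathways that are not members gave 14 higher, 29 lower and 48 not called among 91 tested, with a median log2 fold change of -0.07. That is 47.3% called, against 39.2% of all tested genes. These lists were drawn up by pathway with earlier results of these data known, and are described by counts only.

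Monounsaturated fatty acids are the substrate of the ACSL3 and MBOAT2 branch. All 4 tested genes listed for their supply, desaturases and less specific elongases, were lower (median -0.69, the farthest from 0 of the list medians). The larger decreases were those of the desaturase genes Scd2 and Scd1. Scd2, a stearoyl-CoA desaturase, was at 46.3, 53.4 and 47.1 FPKM in F/F-labelled and 17.1, 16.9 and 17.7 FPKM in KO-labelled replicates (log2 fold change -1.45, SE 0.056, adjusted p = 1.7e-06 by limma). Scd1, its close relative, went from 8.35 ± 0.48 to 3.26 ± 0.39 FPKM (-1.14). The elongase gene Elovl1 fell by 0.23 on the log2 scale. Elovl6, another elongase, stood at -0.21, a call kept in 10 of the 15 alternatives that tested it.

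Genes that supply polyunsaturated fatty acids, the ACSL4 branch, gave 3 higher and 1 lower of 7 tested (median 0.07). The delta-6 desaturase gene Fads2 rose from 104 ± 4.7 to 122 ± 3.8 FPKM (0.23, adjusted p = 0.0046 by limma), and the elongase Elovl5 (0.16) and the triglyceride lipase Pnpla2 (0.17) rose too. The 1 lower gene, Pla2g6 (-0.17), lost its call on leaving out any 1 of the 6 libraries. The number of lower genes in this list was not stable: it was 3 under median-ratio scaling, quantile normalization, no variance trend, removal of the length trend or voom, and 0 without a filter on low values, while 3 were higher in every setting. Just outside the threshold in the main test were the phospholipase gene Pla2g4a (-0.21, adjusted p = 0.05 by limma) and the acetyl-CoA carboxylase gene Acaca (-0.15, adjusted p = 0.062 by limma). Long-chain acyl-CoA synthetases and fatty acid transport proteins had 1 higher (Acsbg1, 0.41) and 2 lower of 8 (median -0.06). Besides Acsl4 the lower gene was Slc27a2, a very-long-chain synthetase and proximal tubule marker, at 8.96 ± 2.1 and 2.16 ± 0.59 FPKM (-1.65). The more abundant relatives Acsl5 and Acsl1 stood at -0.02 and 0.10, not called.

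Lysophospholipid acyltransferases moved both ways, with 4 higher and 3 lower of 12, Mboat2 and Lpcat3 among them (median 0.01). Lpcat1, which makes the saturated phosphatidylcholine of surfactant, rose from 6.58 ± 0.31 to 9.53 ± 0.43 FPKM (0.47, adjusted p = 2.9e-04 by limma). Lpcat2 (0.28) and Lpgat1 (0.27) rose as well. Mboat1 (-0.21), the closest relative of Mboat2, and Agpat3 (-0.12) were lower in the main test. Both lost their calls under some settings that kept all libraries, among them no filter on low values. The count of lower genes was 1, leaving Lpcat3, without F/F-labelled replicate 2 or 3 or any single KO-labelled library.

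POR shares its role as an electron carrier of the endoplasmic reticulum with cytochrome b5 and its reductases. Of 7 tested, 5 were lower, Por included, and 1 higher (median -0.24). Among the lower genes, Cyb5a (-0.14) lost its call without KO-labelled replicate 1 or 3 or any single F/F-labelled library. The lower count was then 4. Its call was also lost under several settings that kept all libraries. Cyb5r1, a reductase known to promote lipid peroxidation together with POR, fell from 82.0 ± 2.0 to 68.4 ± 5.3 FPKM (-0.26, adjusted p = 0.0064 by limma). Cyb5r2 fell by 0.55 and Cyb5b, the outer mitochondrial membrane form of cytochrome b5, by 0.24 on the log2 scale. Cyb5r4 (0.12) was the higher gene, and it was not called without KO-labelled replicate 2 or 3 or any single F/F-labelled library. Lipoxygenases, enzymes that oxidise free or bound polyunsaturated fatty acids directly, were nearly absent: of 9 genes in the list, 2 passed the filter. Alox5 (0.457 ± 0.11 to 1.30 ± 0.088 FPKM) passed only through the KO-labelled libraries, so it had to differ to be tested (0.66), and it was not tested without any of them. Pebp1, a partner of lipoxygenases, stood at 0.02.

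For GPX4 synthesis the cell needs selenium and a dedicated translation apparatus. Of 11 tested genes of selenium uptake and selenocysteine synthesis, 5 were lower and 6 were not called (median -0.15). Sephs2, which makes selenophosphate, was at 48.7, 47.2 and 49.1 FPKM in F/F-labelled and 35.7, 35.8 and 34.9 FPKM in KO-labelled replicates (-0.44, adjusted p = 4.0e-05 by limma). Scly, which recovers selenium from selenocysteine, fell by 0.39. Lrp2, the megalin receptor that takes up selenoprotein P and is itself a proximal tubule marker, fell by 0.60. The count of lower genes was 3 without F/F-labelled replicate 2. Among glutathione peroxidases, 2 of 4 tested were lower, Gpx4 included, and 1 higher. Gpx3, the secreted plasma form that proximal tubule cells make, went from 1174 ± 106 to 745 ± 30 FPKM (-0.65, adjusted p = 2.4e-04 by limma). Gpx8, an endoplasmic reticulum form without selenium, rose from 29.2 ± 2.9 to 42.2 ± 0.64 FPKM (0.52), and Gpx1 stood at -0.11, not called. Without F/F-labelled replicate 2 or 3 the count of lower peroxidases was 1. Gpx7 reached 1 FPKM in too few libraries to be tested. It stood at 1.05 ± 0.12 FPKM under the F/F label and 0.352 ± 0.033 FPKM under the KO label, with the groups apart. With no filter on low values the count of lower peroxidases was 3.

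AIFM2, DHODH and GCH1 act through coenzyme Q and tetrahydrobiopterin. Coenzyme Q synthesis gave 2 higher and 4 lower of 15 (median -0.07), or 40.0% called, near the 39.2% of all tested genes, with Coq6 (-0.23) and Adck4 (-0.22; COQ8B) lower in all 16 alternatives. The higher genes were Adck3 (0.27; COQ8A) and Coq10b (0.22), and the count of higher genes was 0 without KO-labelled replicate 1 and 1 without any other single library. The lower count was 2 without F/F-labelled replicate 1 or 3 or KO-labelled replicate 3. Of 5 quinone and vitamin K reductases, Aifm2 and Dhodh included, 1 was called: Nqo1, a cytosolic quinone reductase, rose from 24.3 ± 0.79 to 31.4 ± 2.8 FPKM (0.36, adjusted p = 0.0022 by limma). In tetrahydrobiopterin synthesis 1 of 6 was lower and 5 were not called (median -0.04): Spr, sepiapterin reductase, the last enzyme of the pathway that Gch1 opens, went from 39.5 ± 0.39 to 30.0 ± 1.1 FPKM (-0.38, adjusted p = 1.2e-04 by limma). In pyrimidine synthesis, where DHODH acts, Cad was lower (-0.23) and Umps stood at -0.04.

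Among 11 further genes, listed as suppressors of phospholipid peroxidation though not all act as such, 3 were lower and 8 not called (median -0.08). Hmox1, the haem oxygenase induced by oxidative stress, went from 410 ± 17 to 249 ± 9.3 FPKM (-0.72, adjusted p = 1.7e-05 by limma). Prdx6, a peroxiredoxin that also reduces phospholipid hydroperoxides, stood at -0.21 with adjusted p = 0.022. The remaining lower gene, Pla2g6 (-0.17), is the same gene counted above among those that supply polyunsaturated fatty acids. It lost its call on leaving out any 1 library. The count of lower genes was 1, Hmox1, without F/F-labelled replicate 1 or 3. Ether phospholipid synthesis, which supplies polyunsaturated plasmalogens, had 1 higher (Agps, 0.21) and 3 lower of 7 (Ept1 -0.18, Tmem189 -0.13 and Chpt1 -0.11; median -0.04). The higher count was 0 without F/F-labelled replicate 2 or 3 or KO-labelled replicate 1. The lower count was 1 without F/F-labelled replicate 1 or 2 and 0 without F/F-labelled replicate 3 or KO-labelled replicate 2 or 3.

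**Figure D5:**
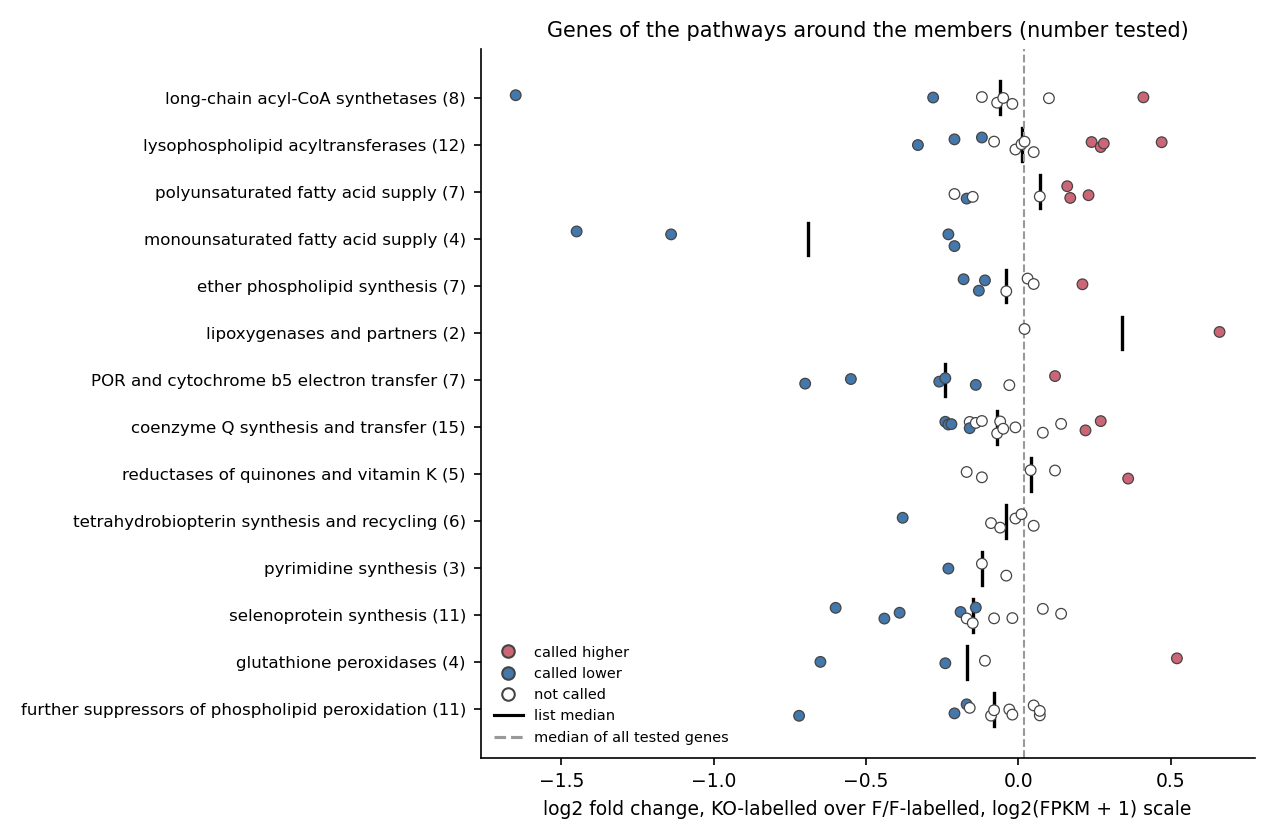
Log2 fold change (horizontal axis) of the tested genes in each pathway list, members included, with list medians as black bars and the median of all tested genes as a dashed line. The desaturase genes Scd1 and Scd2 and Slc27a2 lie farthest to the left, and most lists have a median between -0.24 and 0.07.

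The tested genes whose profile over the 6 libraries was most like that of each called member were found by Pearson correlation of log2(FPKM + 1), as a description. For Por they were the neutral amino acid transporter gene Slc6a18 (r = 0.999, 5.53 to 1.12 FPKM) and Entpd2 (r = 0.999), and 665 genes exceeded an r of 0.95 with Por. For Lpcat3 they were Cyp2d22 (0.996) and Agpat1 (0.995), and for Acsl4 Zfp937 (0.995) and Zdhhc6 (0.993). Gpx4 was closest to Ap1b1 (0.996) and Lamtor2 (0.995), and Mboat2 to the circadian regulator gene Clock (0.999) and Ptpn18 (0.997). With 6 libraries in 2 groups, genes that differ between the labels tend to correlate with one another.

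The authors' deposited table gave log2 fold changes of -0.74 for Por, -0.37 for Lpcat3, -0.33 for Acsl4, -0.27 for Gpx4 and 0.25 for Mboat2. In the authors' deposited table the FDR was 1.2e-49 for Por and 0.037 for Mboat2, and 0.26 to 1 for the other 4 suppressors.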

How the data were processed

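There were 6 messenger RNA libraries, 3 labelled Atg5F/F and 3 Atg5KO, prepared with a stranded kit per the labels' protocols. The submitters' processing notes name the build GRCm38 (mm10) and the tools edgeR, featureCounts 1.4.6, HISAT2 2.1.0, Trimmomatic 0.35 and bcl2fastq. The authors deposited 1 table with an FPKM value per gene and library. The authors' deposited table also holds a log2 fold change, a p-value, an FDR and a rank score per gene. Sources used here do not give the annotation, the strand setting or the treatment of multi-mapping reads.

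FPKM steps gave back whole reads for 18296 of 18296 genes above 0 (within a relative tolerance of 1.5e-09 or 2.0e-04 reads), with the library totals and the gene lengths. The members held 85 to 4768 reads per library. The main test was limma 3.58.1 (R 4.3.3; lmFit, then eBayes using a mean-variance trend). It was fitted to log2(FPKM + 1) for the 11559 genes that reached 1 FPKM in 3 or more of the 6 libraries. Genes were called where the Benjamini-Hochberg adjusted p was under 0.05. Fold changes on this scale understate changes of low genes. Intervals are 95% from the same fit. The 16 alternatives were voom on the recovered reads, removal of each library's loess trend on gene length (span 0.5), eBayes without the trend or in its robust form, a minimum of 5 FPKM or none, a pseudocount of 0.1, quantile or median-ratio scaling, the replicate number as a block, and dropping each library in turn. The fit and the read recovery were tested on simulated data. Named genes were every member, up to 3 called genes with the largest change per pathway list (or the smallest p where none was called) and the 2 most alike genes per called member; a few further genes were named after their values were seen. Members and lists were chosen with earlier results of these data known. Promoters are from RefSeq (GRCm38.p6), gene positions and selenocysteine codons from GENCODE vM21.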

Additional observations from a re-analysis of the deposited data

How the results depend on the processing

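Acsl4, Lpcat3 and Por were lower in all 16 alternative analyses, Gpx4 in 14 of 16 and Mboat2 higher in 10 of the 15 that tested it, and none of these 5 changed direction. The number of members called lower was 4 in every setting except without F/F-labelled replicate 2 or 3, where it was 3. The number called higher was 0 without a filter on low values and 0 with a filter of 5 FPKM, which left Mboat2 and Acsl3 untested, and ran from 0 to 1 when 1 library was left out. The difference of the mean log2 ratio of Acsl4 to Acsl3 (-0.19) ran from -0.28 to -0.09 when 1 library was left out. The number of genes called ran from 3212 without F/F-labelled replicate 3 to 5064 with voom. Gch1 and Acsl3, not called in any setting, changed sign in 6 and 1 of them. Counts in several pathway lists also moved by over 1.5 times under settings that kept all libraries. Without a filter on low values the lower genes numbered 1 among lysophospholipid acyltransferases, against 3 in the main test. The same counts held among the further genes listed as suppressors. In ether phospholipid synthesis the lower genes numbered 1, against 3, without that filter, with the replicate block or with no variance trend. The higher genes in coenzyme Q synthesis numbered 1 in place of 2 in 6 such settings, and Cyb5r4 was not called under median-ratio scaling or without the variance trend. Same-numbered libraries had correlations of their deviations of 0.163, 0.075 and -0.023, so the numbers were not taken to pair the samples; with the replicate block 4 members were lower, 1 was higher and the number of genes called was 4668. Libraries differed in how their deviations from each gene's mean over the 6 libraries followed gene length. Spearman rho across genes ran from -0.23 to -0.16 under the F/F label and 0.04 to 0.34 under the KO label. Because such deviations balance out within each gene, the opposite signs are in part built in by this length trend measure. With that trend removed the log2 fold changes were -0.70 for Por, -0.33 for Lpcat3, -0.35 for Acsl4, -0.20 for Gpx4 and 0.22 for Mboat2, each still called. Low reads limit Acsl3, with 85 reads in KO-labelled replicate 2, its lowest count.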

Other observations

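GPX4 is 1 of 24 mouse genes to which GENCODE vM21 assigns a selenocysteine codon, a set chosen after the values were seen and so described without a test. Of these, 18 were tested: 2 were higher, 6 were lower and 10 did not pass, so that 44.4% were called, near the 39.2% of all tested genes. Their median log2 fold change was -0.02. The lower genes were Gpx3 (-0.65), Sephs2 (-0.44), the mitochondrial thioredoxin reductase gene Txnrd2 (-0.35), Gpx4 (-0.24), Ept1 (-0.18; also Selenoi) and Msrb1 (-0.15), a methionine sulfoxide reductase. The higher genes were Sepp1 (0.26; selenoprotein P, the selenium carrier of plasma) and Sepn1 (0.24), and the cytosolic thioredoxin reductase gene Txnrd1 stood at -0.08, not called.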
